A study of Mus musculus with 19 samples.

Results

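The replication-dependent histone genes of the mouse were followed from embryonic stem cells to epiblast-like cells in wild-type XX, wild-type XY and XX Tet3-/- cells. Members were the protein-coding genes whose symbol in GENCODE M21 starts with Hist1h, Hist2h, Hist3h or Hist4h, which gave 67 of the 54119 genes in the deposited table. They were 6 linker histone H1 genes, 18 H2A genes, 18 H2B genes, 12 H3 genes and 13 H4 genes. Expression is given as scaled TPM, that is TPM (abundance relative to all transcripts of a library, per length) summed per gene and divided by a factor per library that brings the libraries to a common level. Of the members, 64 passed the filter on low values and were tested, and Hist1h4m, Hist2h3c1 and Hist2h2be were not.

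Nucleosomes wrap DNA around an octamer of the core histones H2A, H2B, H3 and H4, and H1 binds the linker DNA between them. Most of the histone protein laid down behind replication forks comes from clustered, intronless genes that are transcribed in S phase. Their mRNAs are the known case of metazoan mRNAs without a poly(A) tail and end instead in a conserved stem-loop, which is bound by the stem-loop binding protein SLBP. Libraries made from total RNA, as here, retain such transcripts, whereas selection for poly(A) would lose most of them. Pluripotent stem cells are known for a cell cycle with a large share of cells in S phase.

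Mouse embryonic stem cells (mESC) were cultured in N2B27 with LIF and inhibitors of GSK3 and of MEK1/2. Epiblast-like cells (EpiLC), a culture state modelled on the epiblast as it leaves naive pluripotency, were derived from mESC by feeding FGF5 and Activin A for 5 days while LIF was withheld. Each state was represented by wild-type XX cells of the LF2 line (3 mESC and 3 EpiLC libraries), wild-type XY cells of the E14 line (3 and 3) and XX Tet3-/- cells made in LF2 (4 and 3), so that sex and cell line cannot be told apart. Tet3 encodes an enzyme that oxidises 5-methylcytosine. Tet3-/- mESC carry the numbers 1, 2, 3 and 4, and Tet3-/- EpiLC, in the order given throughout, the numbers 1, 3 and 4. The labels say neither whether these numbers are clones nor whether the replicates were separate cultures, so that p-values measure only the spread between these libraries.

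Sequencing depth is unknown because TPM does not keep it. Between 23.5% and 43.7% of a library's TPM was the 7SL RNA gene Rn7s1, and the scaling factors ran from 0.603 to 1.64. Tet3 itself had from 0.611 to 1.24 scaled TPM in XX mESC and from 0.496 to 0.853 in Tet3-/- mESC, and from 1.42 to 1.97 in XX EpiLC and from 1.06 to 1.34 in Tet3-/- EpiLC. The labels do not say which part of the gene was deleted, so a value for the whole gene does not check the genotype. Summed over 6 naive markers (Nanog, Klf4, Esrrb, Tfcp2l1, Zfp42 and Tbx3), mESC libraries had 396 to 553 scaled TPM and EpiLC libraries 36.0 to 91.3. Of 5 EpiLC markers, Fgf5, Dnmt3b, Pou3f1 and Sox3 rose in all 3 transitions, while Otx2 rose by 4.01 on the log2 scale in XY cells, fell by 0.86 in XX cells and was not called in Tet3-/- cells (-0.08, limma adjusted p 0.71). The sums of 4 fibroblast markers were 0.647 to 1.97 in mESC and 1.83 to 6.48 in EpiLC, those of 4 primitive endoderm markers 0.389 to 6.02, and the part of either cell type in the results was not tested.

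The stem-loop that gives these mRNAs their end was looked for in the M21 transcripts, on the sense strand after the stop codon, as the metazoan histone stem-loop with some positions of the stem and loop left free. All forms that matched among the members are given here. The stem-loop was found there in 44 of the 67 members. For all genes the pattern was searched over the whole of each protein-coding transcript, not only after the stop codon. Counted in this wider way it was in 72 of 21901 protein-coding genes (0.329%), of which 44 were members. Of the 23 members without it, 17 are annotated to end within 60 bases of the stop codon, so the annotated transcript may stop before the loop. Hist1h4m and Hist1h2ap, annotated to end 52 and 57 bases after the stop codon, did show it. The stem-loop began 21 to 58 bases after the stop codon, with a median of 31. One example of each of the 6 forms is shown because the form differed between classes, with the 16 bases of the pattern in capitals.
Hist1h1e: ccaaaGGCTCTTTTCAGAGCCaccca
Hist1h2bb: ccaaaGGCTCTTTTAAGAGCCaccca
Hist2h2ac: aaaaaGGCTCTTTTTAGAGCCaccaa
Hist1h4c: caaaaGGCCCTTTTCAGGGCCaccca
Hist1h4i: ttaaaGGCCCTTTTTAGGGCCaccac
Hist1h4b: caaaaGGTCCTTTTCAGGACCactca

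The first form was the most common, in 26 genes (3 H1, 10 H2A, 8 H2B and 5 H3). The second form was in 6 genes (1 H1, 2 H2B and 3 H3), among them Hist1h2bb, the member with the highest mean level. The form of Hist2h2ac occurred in that gene alone. The last 3 forms were found in H4 genes, of which 7 had the form of Hist1h4c, 2 that of Hist1h4i and 2 that of Hist1h4b. None of the H4 genes with a match had a form seen in another class.

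The members lie in few places of the genome (GRCm38). On chromosome 13 the Hist1 cluster has 23 members between 21715763 and 22043676 and 31 between 23531050 and 23934851, which held on average 32.0% and 55.7% of the members' scaled TPM. The Hist2 cluster on chromosome 3 (96219865 to 96270132) has 10 members with 11.6%. The 2 Hist3 members on chromosome 11 held 0.429% and Hist4h4 on chromosome 6 held 0.289%. In 13 places 2 members point away from each other with start sites 176 to 660 bases apart, in 12 cases an H2A with an H2B gene and in 1 case an H2B with an H3 gene.

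Many members are near-copies of each other, which bears on every value for a single gene. Of each member's 31-base words, a median of 58.5% also occurred in another gene's transcripts, and 40 members shared over 50%. By class the median was 3.73% for H1, 74.9% for H2A, 57.4% for H2B, 63.1% for H3 and 47.9% for H4. Values of single core histone genes are therefore uncertain where reads could be divided among copies, whereas those of most H1 genes rest on unique sequence.

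RefSeq promoters (GRCm38.p6), 250 bases before to 50 bases after the start, matched 61 of the 67 members. Searched on both strands, the letters TATAAA, the TATA box, were in 55.7% of the members' promoters and 13.6% of all 32851, and CCAAT, the CCAAT box, in 85.2% and 37.4%. CCAAT was in every matched promoter of H1 (5), H2A (18), H2B (16) and H3 (10), but in 3 of 12 of H4. ATTTGCAT, the octamer bound by POU factors, was in 21.3% of the members' promoters and 1.74% of all. It occurred in 7 of 18 H2A and 6 of 16 H2B promoters and in none of H1, H3 and H4. AAACACA, known as the H1 box, was in 4 of 5 H1 promoters and in 7.18% of all. These matches are descriptions of letters and not of bound sites.

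Levels spanned a wide range. Averaged over the 19 libraries, 25 members had at least 100 scaled TPM, 28 had 10 to 100 and 14 less than 10. The highest H2B genes were Hist1h2bb (mean 483), Hist1h2bg (359) and Hist2h2bb (289). The highest H4 genes were Hist1h4n (426), Hist1h4f (342) and Hist1h4h (321), and the highest H3 genes were Hist1h3e (157), Hist1h3b (152) and Hist1h3c (147). Among H2A genes Hist2h2aa1 (212), Hist1h2ab (129) and Hist1h2ap (113) led, and among H1 genes Hist1h1a (329), Hist1h1b (159) and Hist1h1c (109.9). All are per length, but annotated lengths of the members run from 312 bases to 7425 for Hist1h1d, so the order depends on the annotation.

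Summed by class, the members' RNA varied widely between mESC libraries of one group. The H2B genes had 1876, 3655 and 1785 scaled TPM in XX mESC 1, 2 and 3, and 2492, 2373 and 2353 in XX EpiLC. In Tet3-/- mESC 1 to 4 they had 1686, 2625, 2738 and 1416, and in Tet3-/- EpiLC 2376, 1981 and 2221. In XY mESC they had 3183, 2962 and 2276, and in XY EpiLC 2175, 2203 and 1887. XX mESC 2 and Tet3-/- mESC 2 and 3 were thus above all EpiLC libraries of their own genotype, and the other LF2 mESC libraries were below all XX EpiLC libraries. Only in the XY cells did every mESC library exceed every EpiLC library.

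**Figure D1:**
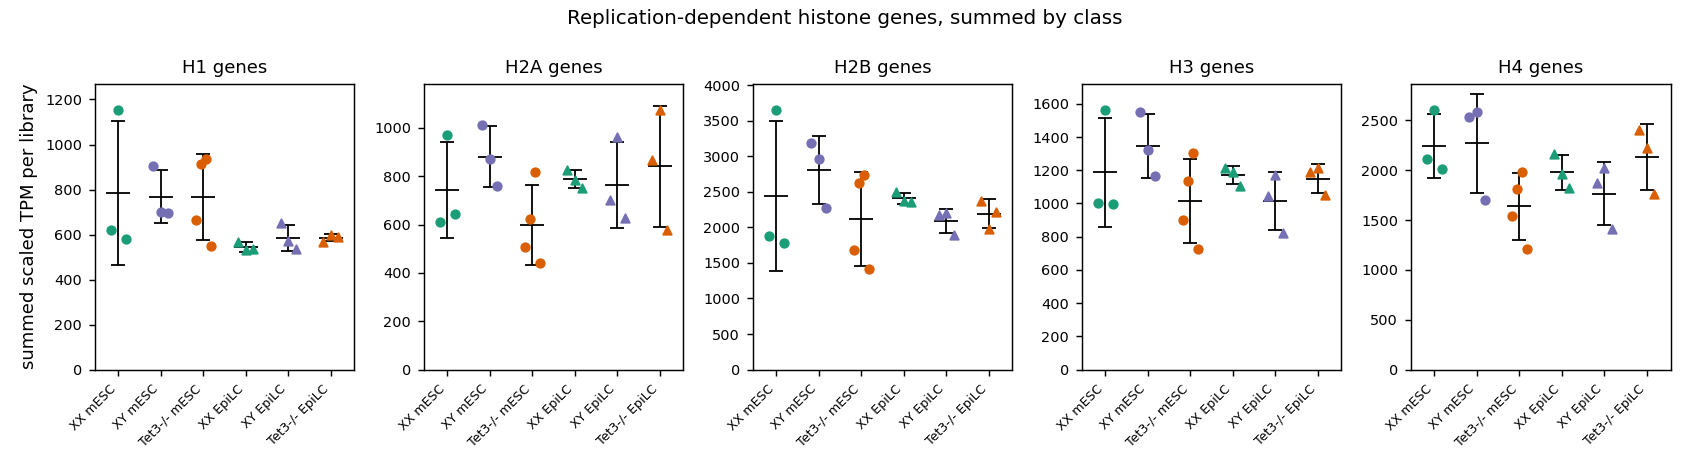
Summed scaled TPM of the members of each histone class in each of the 19 libraries, with circles for mESC, triangles for EpiLC, long lines at the group mean and bars of 1 SD. One XX mESC library, at 3655 for H2B, stands above the other 2 at 1876 and 1785, and the 3 XX EpiLC libraries lie within 2353 to 2492.

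For the other classes in XX cells, the H1 sum was 620, 1155 and 581 in XX mESC and 568, 531 and 534 in XX EpiLC. The H4 sum was 2112, 2608 and 2011 in XX mESC and 2165, 1958 and 1819 in XX EpiLC. The H3 sum was 1000, 1565 and 996 in XX mESC and 1212, 1192 and 1107 in XX EpiLC. In each class XX mESC 2 was the highest of the XX libraries, while XX mESC 1 and 3 lay above all XX EpiLC for H1 and below them for H3. Tet3-/- mESC 2 and 3 did not exceed all Tet3-/- EpiLC for H2A (625 and 818 against 869, 1076 and 578) or H4 (1813 and 1982 against 2403, 2226 and 1766).

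The 3 high LF2 libraries stood apart over all genes as well. Deviations from the group mean over the 14972 tested genes correlated at 0.29 to 0.51 between XX 2 and Tet3-/- 2 and 3, or between XX 1 and 3 and Tet3-/- 1 and 4, and at -0.52 to -0.37 across these sets. The correlations are across genes within these libraries and are descriptions only. Deviations within a genotype sum to 0, so the positive and negative ranges are bound to each other. The sets were formed after the data were seen. The median log2 level of 20 S phase genes such as Pcna, Mcm2 and Rrm2 was 5.54, 5.15 and 5.35 in XX 2 and Tet3-/- 2 and 3, and 4.63 to 4.70 in the other 4 LF2 mESC libraries. The sum of the 4 primitive endoderm markers went the other way, from 0.519 to 0.760 in the 3 high libraries and from 2.12 to 4.75 in the other 4. The part of either in the histone values was not tested, and in bulk RNA fewer cells in S phase and less RNA per cell cannot be told apart. Counts that rest on LF2 mESC are given with and without the 3 libraries, an alternative added after the data were seen.

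Across states the histone genes and the S phase genes did not keep to one relation. XX EpiLC had a member median of 6.39, 6.43 and 6.39 on the log2 scale with an S phase median of 4.30, 4.32 and 4.28. XX mESC 1 and 3 had lower member medians, 5.99 and 6.02, with higher S phase medians, 4.63 and 4.66. Tet3-/- EpiLC 1 had the lowest S phase median of all libraries, 3.99, with a member median of 6.49.

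**Figure D2:**
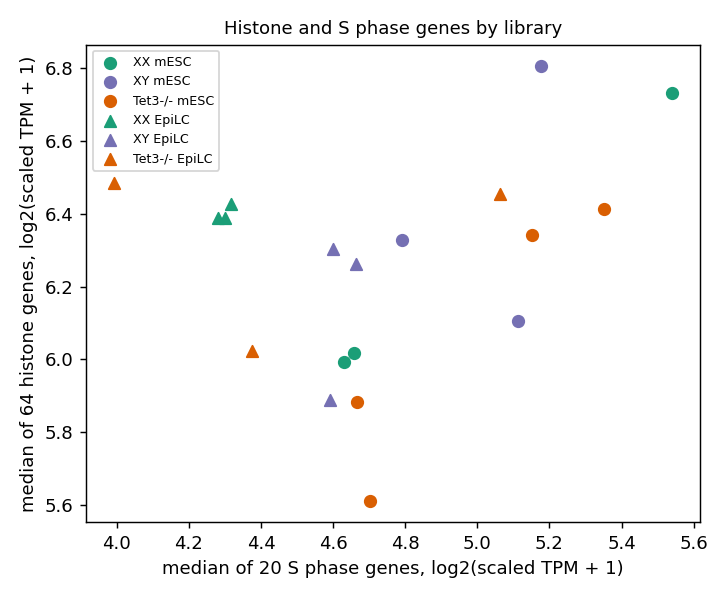
Median log2(scaled TPM + 1) of the 64 tested histone genes against that of 20 S phase genes, 1 point per library. Among mESC libraries (circles) the highest histone medians, 6.81 and 6.73, go with S phase medians of 5.18 and 5.54, whereas the XX EpiLC libraries (triangles at 4.28 to 4.32) have histone medians of 6.39 to 6.43.

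Variation within a group differed by group. For the 55 members with a mean of at least 5 scaled TPM the median coefficient of variation was 30.7% in XX mESC, 21.7% in XY mESC and 28.9% in Tet3-/- mESC. It was 6.65% in XX EpiLC, 14.6% in XY EpiLC and 21.6% in Tet3-/- EpiLC. Together the members held from 1.29% to 2.57% of the TPM of protein-coding genes.

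The first question was which members changed between mESC and EpiLC. In XX cells 8 of 64 tested members were called by limma at an adjusted p under 0.05, 1 higher and 7 lower in EpiLC, where 50.3% of all tested genes were called, 26.6% higher and 23.7% lower. The members' median log2 fold change was -0.10 and that of all tested genes 0.03. Without XX mESC 2 and Tet3-/- mESC 2 and 3 the count was 19, of which 14 were higher and 5 lower, the members' median was 0.19, and 52% of all genes were called. Leaving out XX mESC 2 alone turned the members' median to 0.19 as well.

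In XY cells 16 of 64 members were called, 3 higher and 13 lower, against 51.5% of all tested genes, 28.9% higher and 22.6% lower. The members' median was -0.30 beside 0.05 for all genes, but with TPM as deposited it was 0.30 beside 0.54 for all genes, with 6 members called, 4 higher and 2 lower. The count was 9 without XY mESC 1 and 22 without XY mESC 3. The sign of the members' median in XY cells thus depended on the scaling, while it lay under the median of all genes on both scales.

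In Tet3-/- cells 10 of 64 members were called, 7 higher and 3 lower, against 52.4% of all tested genes, 26.5% higher and 25.9% lower. The members' median was 0.22 beside 0.03 for all genes. Without the 3 libraries 29 were called, 26 higher and 3 lower, with a median of 0.54 beside 0 for all genes and 51.9% of all genes called. The count was 5 without Tet3-/- EpiLC 1 and 16 without Tet3-/- EpiLC 4. With TPM as deposited the Tet3-/- count was 3, 1 higher and 2 lower, with a members' median of 0.02 beside -0.13 for all genes.

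**Figure D3:**
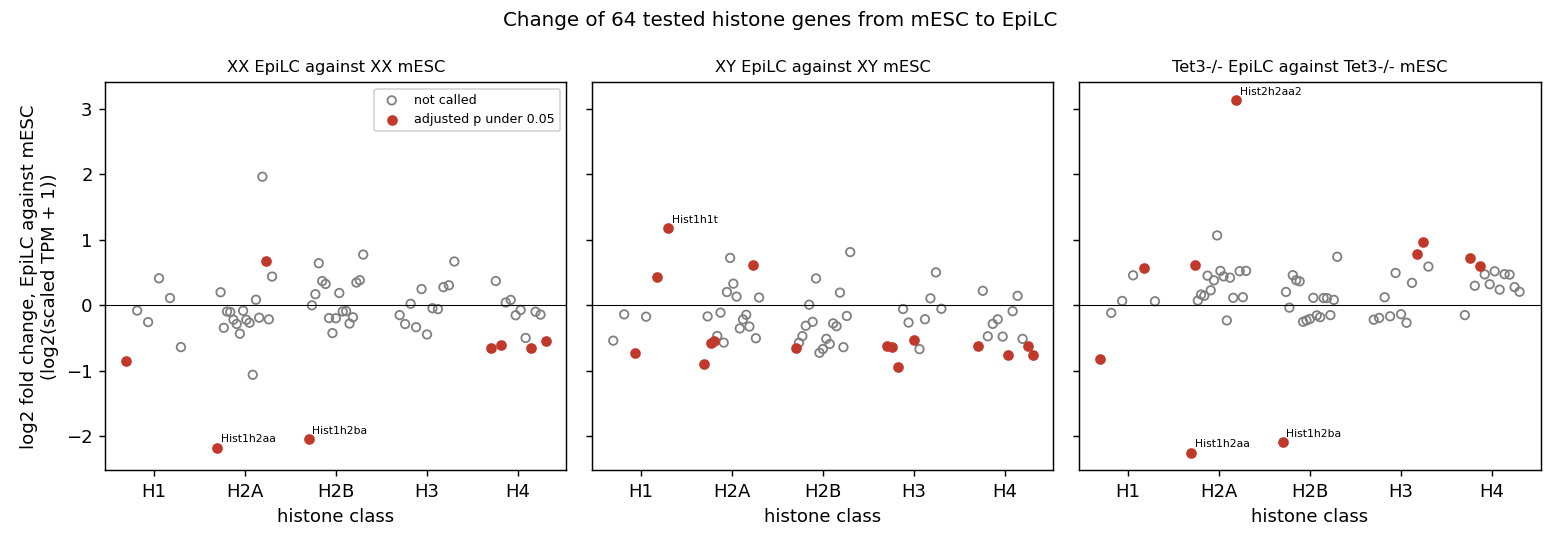
Log2 fold change from mESC to EpiLC of each of the 64 tested histone genes by class, in XX, XY and Tet3-/- cells, with filled points for genes at an adjusted p under 0.05 and names for called genes beyond 1 log2 unit. Hist1h2aa and Hist1h2ba lie near -2 in XX and Tet3-/- cells, and most other points lie within 1 of 0.

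By class, 4 of 12 tested H4 genes were lower in EpiLC in XX cells and 4 in XY cells, and 2 were higher and 0 lower in Tet3-/- cells, where 23.7% and 22.6% of all tested genes were lower in XX and XY cells and 26.5% higher in Tet3-/- cells. Without the 3 high libraries 1 H4 gene was higher and 1 lower in XX cells (median -0.08), and 7 were higher in Tet3-/- cells (median 0.64). For H4 the median log2 fold change was 0.39 in Tet3-/- cells, against -0.47 in XY and -0.15 in XX cells. Of 11 tested H3 genes, 0 were called in XX cells, where 2 had an unadjusted limma p under 0.05, 4 were lower in XY cells and 2 higher in Tet3-/- cells. When the 3 high libraries were left out, 2 H3 genes were higher in XX and 4 in Tet3-/- cells. Of 17 tested H2B genes 1 was called in each transition, Hist1h2ba each time, and without the 3 high libraries 8 were higher and 1 lower in XX cells and 9 higher and 1 lower in Tet3-/- cells. Without those libraries 26.4% of all tested genes were higher and 25.6% lower in XX cells, and 25.1% and 26.8% in Tet3-/- cells. The H2B counts of higher genes lay above these shares in both genotypes, those of H3 and H4 only in Tet3-/- cells.

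Among the linker histones, Hist1h1a had the largest part of the H1 RNA. It encodes H1.1, a somatic subtype. It had 301, 656 and 289 scaled TPM in XX mESC and 222, 209 and 209 in XX EpiLC, and it had 375, 535, 534 and 311 in Tet3-/- mESC and 213, 269.8 and 243 in Tet3-/- EpiLC. All mESC libraries of both LF2 genotypes were above all their EpiLC libraries. The log2 fold change was -0.85 ± 0.27 (SE, n = 3 and 3, limma adjusted p 0.0158) in XX and -0.82 ± 0.25 (SE, n = 4 and 3, limma adjusted p 0.0121) in Tet3-/- cells. Hist1h1a in XX cells was no longer called without XX mESC 2 (-0.47, adjusted p 0.0887) with TPM as deposited (adjusted p 0.243) or in a fit of only the groups compared (adjusted p 0.0786), and in Tet3-/- cells without EpiLC 1 (adjusted p 0.0515) or with TPM as deposited (adjusted p 0.0511). Without the 3 high libraries together it was called in both, at -0.47 (limma adjusted p 0.0293) and -0.50 (limma adjusted p 0.0203). In XY cells it had 459, 309 and 357 in mESC and 289.7, 241 and 236 in EpiLC, and limma did not call it (-0.54, adjusted p 0.11).

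A share of the H1 sum does not depend on the scaling of a library. Hist1h1a made up 48.5%, 56.8% and 49.7% of H1 in XX mESC and 39.0%, 39.4% and 39.1% in XX EpiLC. In Tet3-/- cells it was 56.5%, 58.5%, 57.1% and 56.8% in mESC and 37.5%, 45.1% and 41.2% in EpiLC. The groups did not overlap in either genotype, and the high libraries were not the only ones above EpiLC. In XY cells the share was 50.7%, 44.0% and 51.3% in mESC and 44.6%, 42.2% and 44.2% in EpiLC, which overlap.

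Hist1h1e, which encodes H1.4, moved the other way in its share of H1. A share can also rise where another H1 gene falls. Its share of H1 was 4.27% to 7.02% in XX mESC and 8.69% to 8.71% in XX EpiLC, 5.23% to 5.81% in XY mESC and 8.95% to 11.0% in XY EpiLC, and 4.90% to 6.92% in Tet3-/- mESC and 9.13% to 13.2% in Tet3-/- EpiLC. In each of the 3 genotypes every EpiLC library was above every mESC library in this share, but in XX cells the level of Hist1h1e was not called. Its level was 47.3, 40.8 and 40.1 scaled TPM in XY mESC and 58.2, 62.9 and 52.5 in XY EpiLC, a log2 fold change of 0.43 ± 0.14 (SE, n = 3 and 3, limma adjusted p 0.0145, and 0.0642 without XY EpiLC 2). In Tet3-/- mESC it was 45.9, 49.3, 45.8 and 37.4, and in Tet3-/- EpiLC 68.7, 79.2 and 53.8, a log2 fold change of 0.57 ± 0.13 (SE, n = 4 and 3, limma adjusted p 0.0012). The call in Tet3-/- cells was kept without each library in turn and lost with TPM as deposited (adjusted p 0.418) and with TPM rescaled to the protein-coding genes outside the mitochondrial genome (adjusted p 0.0536). Of the 31-base words of Hist1h1e, 34.7% occur in other genes, 24.5% in the overlapping Hist1h2be model. A rise in share was not particular to Hist1h1e. The share of Hist1h1d was 2.62% to 3.59% in XX mESC and 5.55% to 6.00% in XX EpiLC. It was 2.29% to 2.55% in Tet3-/- mESC and 3.43% to 5.30% in Tet3-/- EpiLC, and its groups overlapped in XY cells. The share of Hist1h1b rose without overlap in XX and XY cells and overlapped in Tet3-/- cells.

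**Figure D4:**
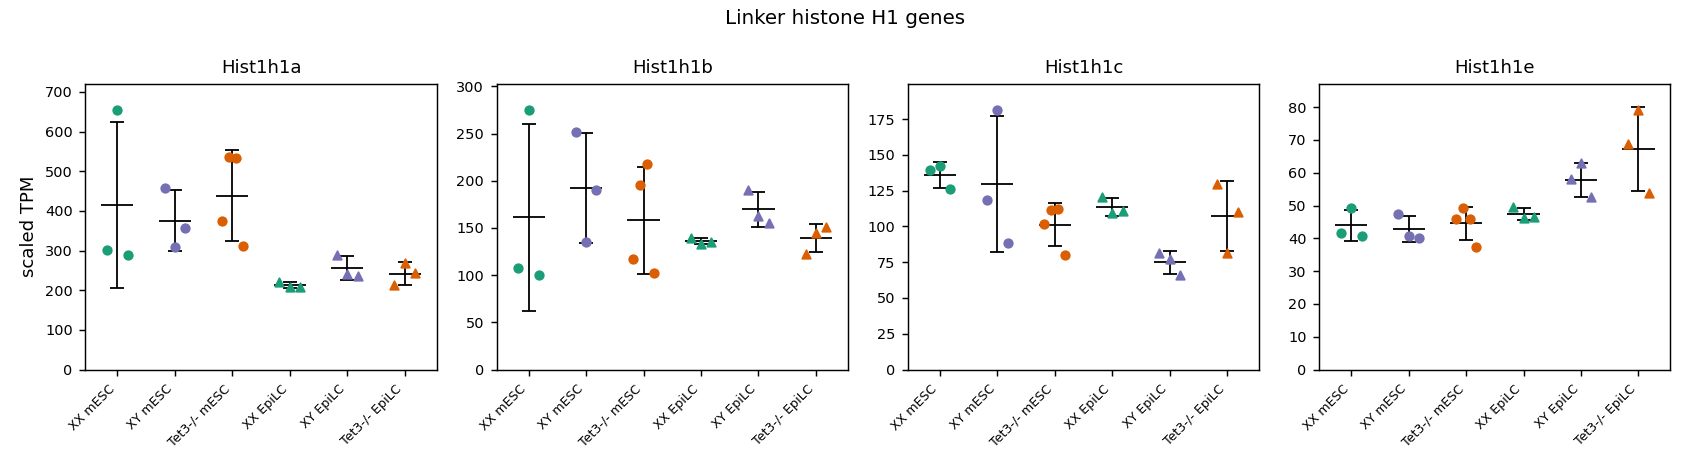
Scaled TPM of 4 linker histone genes in each library, with circles for mESC, triangles for EpiLC, long lines at the group mean and bars of 1 SD. Hist1h1a lies between 289 and 656 in mESC and between 209 and 289.7 in EpiLC, while Hist1h1e in Tet3-/- EpiLC, at 53.8 to 79.2, is above all mESC libraries.

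Hist1h1c, which encodes H1.2, had 118, 182 and 88.7 scaled TPM in XY mESC and 81.6, 77.5 and 66.2 in XY EpiLC. It fell in XY cells by 0.72 ± 0.21 on the log2 scale (SE, n = 3 and 3, limma adjusted p 0.00996), a call lost without XY mESC 2 (adjusted p 0.0649) with TPM as deposited (adjusted p 0.667) and in a fit of only the groups compared (adjusted p 0.0545). XY mESC 2 was the highest of all 19 libraries for this gene. In XX cells Hist1h1c had 139, 143 and 126 in mESC and 121, 109 and 111 in EpiLC, close groups that did not overlap.

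The promoters of Hist1h1a and Hist1h1e are shown because their shares of H1 took opposite courses in XX and Tet3-/- cells. Capitals mark the letters of the TATA box, the CCAAT box and the H1 box on either strand. The window of Hist1h1a is chr13:23763418-23763717 on the plus strand, and that of Hist1h1e is chr13:23622509-23622808 on the minus strand.
Hist1h1a: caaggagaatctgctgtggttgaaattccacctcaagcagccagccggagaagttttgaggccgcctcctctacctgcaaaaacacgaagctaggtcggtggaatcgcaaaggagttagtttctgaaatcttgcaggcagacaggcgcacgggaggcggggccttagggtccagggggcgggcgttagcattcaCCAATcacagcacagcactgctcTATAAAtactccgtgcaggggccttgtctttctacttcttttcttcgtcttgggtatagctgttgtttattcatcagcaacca
Hist1h1e: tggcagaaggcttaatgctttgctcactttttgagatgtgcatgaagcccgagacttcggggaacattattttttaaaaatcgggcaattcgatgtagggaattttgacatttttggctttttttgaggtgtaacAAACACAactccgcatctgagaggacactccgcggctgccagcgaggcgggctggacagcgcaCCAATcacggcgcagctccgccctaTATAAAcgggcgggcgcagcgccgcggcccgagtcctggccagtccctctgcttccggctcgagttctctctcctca
Both hold a TATA box and a CCAAT box. Hist1h1a is the 1 of 5 matched H1 promoters without the letters of the H1 box in this window.

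The 3 members known from the male germ line had the clearest differences. Hist1h2aa and Hist1h2ba encode the testis-type H2A and H2B (TH2A and TH2B), known also from the oocyte and early embryo, and Hist1h1t encodes the testis-specific H1t. All 3 were low, under 10 scaled TPM in every library, so fold changes on the log2(scaled TPM + 1) scale understate their change.

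Hist1h2aa (chromosome 13, 23934462 to 23934851) had 4.53, 6.12 and 3.56 scaled TPM in XX mESC and 8.60, 6.09, 3.71 and 3.75 in Tet3-/- mESC. It had 1.04, 0.763 and 0.919 in XY mESC, from 0.0941 to 0.401 in XX EpiLC and from 0.109 to 0.462 in Tet3-/- EpiLC. In XY EpiLC it was listed at 0 in 2 libraries and had 0.0881 in the third. The LF2 mESC libraries were all above the XY mESC libraries, and those were all above every EpiLC library. The log2 fold change of Hist1h2aa to EpiLC was -2.17 ± 0.23 in XX (SE, n = 3 and 3, limma adjusted p 8.58e-07) and -2.25 ± 0.21 in Tet3-/- cells (SE, n = 4 and 3, limma adjusted p 2.1e-07). In XY cells it was -0.89 ± 0.23 (SE, n = 3 and 3, limma adjusted p 0.00396).

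Hist1h2ba (chromosome 13, 23933773 to 23934156) had 2.64, 4.39 and 2.92 scaled TPM in XX mESC and 4.72, 3.97, 4.41 and 4.83 in Tet3-/- mESC. It had 0.640, 0.645 and 0.414 in XY mESC and from 0.231 to 0.318 in Tet3-/- EpiLC. It was listed at 0 in 3 of 3 XY EpiLC and in 2 of 3 XX EpiLC libraries, the other XX library having 0.0978. The order of the groups was that of Hist1h2aa. The log2 fold change was -2.04 ± 0.13 in XX (SE, n = 3 and 3, limma adjusted p 1.63e-09) and -2.09 ± 0.12 in Tet3-/- cells (SE, n = 4 and 3, limma adjusted p 3.47e-10). Hist1h2ba was also lower in XY EpiLC than in XY mESC (limma adjusted p 0.000443), with no fold given against a group listed at 0. These calls of both genes held without each library in turn, in the XX and Tet3-/- transitions also without the 3 high libraries, and under the other settings in which the gene was refitted. Where a call also needed a log2 change of 1 or more, those of XY cells were lost.

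**Figure D5:**
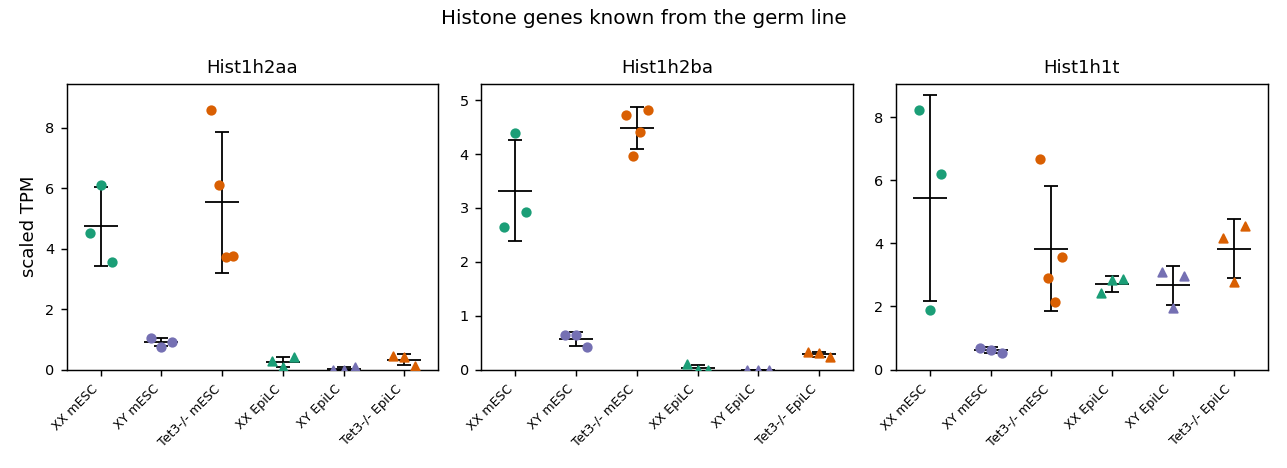
Scaled TPM of Hist1h2aa, Hist1h2ba and Hist1h1t in each library, with circles for mESC, triangles for EpiLC, long lines at the group mean and bars of 1 SD. For Hist1h2ba the XX and Tet3-/- mESC libraries lie at 2.64 to 4.83, the XY mESC libraries at 0.414 to 0.645 and all EpiLC libraries at 0 to 0.318.

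Hist1h2aa and Hist1h2ba point away from each other, with start sites 306 bases apart, and their RefSeq promoter windows share 220 bases. The window of Hist1h2aa (chr13:23934187-23934486, plus strand) is shown because it holds most of the stretch between these genes that moved together. Capitals mark the letters of the TATA box, the CCAAT box, the octamer and the H1 box on either strand, each of which occurs at least once.
Hist1h2aa: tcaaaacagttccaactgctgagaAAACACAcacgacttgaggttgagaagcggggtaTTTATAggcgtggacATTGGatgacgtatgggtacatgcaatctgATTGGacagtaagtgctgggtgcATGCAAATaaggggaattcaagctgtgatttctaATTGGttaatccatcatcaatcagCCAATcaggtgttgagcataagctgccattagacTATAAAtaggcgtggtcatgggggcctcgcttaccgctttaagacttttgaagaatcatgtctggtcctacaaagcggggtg
The sequence has a TATA box for each direction, CCAAT letters on both strands and 1 octamer on the minus strand.

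Hist1h1t (chromosome 13, 23695814 to 23696725) had 8.23, 1.87 and 6.20 scaled TPM in XX mESC and 6.66, 2.92, 2.15 and 3.57 in Tet3-/- mESC. It had 0.692, 0.631 and 0.510 in XY mESC. All EpiLC libraries had from 1.96 to 4.54, namely 2.42 to 2.85 in XX, 1.96 to 3.09 in XY and 2.76 to 4.54 in Tet3-/-. XY mESC were the only group under 1, and XX mESC 2, one of the 3 libraries that stood apart, was the lowest of the XX mESC. In XY cells Hist1h1t rose by 1.17 ± 0.35 on the log2 scale (SE, n = 3 and 3, limma adjusted p 0.0101). In XX cells the change was -0.64 (limma adjusted p 0.143) and in Tet3-/- cells 0.06 (limma adjusted p 0.892), neither of them called. None of the 31-base words of Hist1h1t occurs in another gene.

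Of the H2A genes, Hist2h2ab was called in XX and XY cells. It had 2.57, 4.22 and 2.83 scaled TPM in XX mESC and 6.61, 6.32 and 4.32 in XX EpiLC, and it had 5.41, 3.67 and 3.45 in XY mESC and 6.41, 9.29 and 5.38 in XY EpiLC. Groups did not overlap in XX and overlapped in XY. The log2 fold changes were 0.68 ± 0.23 (limma adjusted p 0.0229) and 0.62 ± 0.23 (limma adjusted p 0.0357), each SE with n = 3 and 3. In XX cells it was not called without XX mESC 1 or 3 or XX EpiLC 1 or 2 (adjusted p 0.0678 to 0.0882), but was called without the 3 high libraries (0.85, 0.01). The XX call was also lost with TPM as deposited (limma adjusted p 0.118) and with quantile normalization (0.0571). In XY cells it was not called without XY mESC 2 or 3 or XY EpiLC 1 or 2 (adjusted p 0.0543 to 0.177), or with quantile normalization (0.101).

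Hist1h2ab had 75.9, 93.2, 125 and 73.6 scaled TPM in Tet3-/- mESC and 149, 182 and 97.9 in Tet3-/- EpiLC, which overlap. The log2 fold change was 0.62 ± 0.23 (SE, n = 4 and 3, limma adjusted p 0.0351). The call was lost without Tet3-/- mESC 1, 2 or 4 or Tet3-/- EpiLC 1 or 3 (adjusted p 0.0522 to 0.171), and without the 3 high libraries it was 0.88 (adjusted p 0.00933). Hist1h2ab was not called with TPM as deposited (0.41, limma adjusted p 0.453) or with rescaled TPM (0.52, limma adjusted p 0.141).

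All 31-base words of Hist2h2aa2 also occur in Hist2h2aa1. Hist2h2aa2 had 39.5, 14.2 and 59.7 scaled TPM in XX mESC, 19.8, 0, 4.98 and 73.1 in Tet3-/- mESC, and 180, 208 and 15.8 in Tet3-/- EpiLC. It was from 0% to 51.4% of the sum of both genes. The sum ran from 177 to 406, with 197, 261, 319 and 177 in Tet3-/- mESC and 385, 405 and 257 in Tet3-/- EpiLC. Hist2h2aa1 had a mean of 214 both in Tet3-/- mESC and in Tet3-/- EpiLC. The fitted rise of Hist2h2aa2 in Tet3-/- cells was 3.13 ± 1.08 on the log2 scale (SE, n = 4 and 3, limma adjusted p 0.0226), and how reads were divided between these copies was not tested. It was not called without Tet3-/- mESC 2 (adjusted p 0.0683) or 3 (0.0537), without Tet3-/- EpiLC 1 (0.0985) or 3 (0.10), or without the 3 high libraries (1.13, adjusted p 0.277).

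Of the H3 genes, all of which encode the replicative H3 proteins, Hist1h3c had 214, 225 and 149.5 scaled TPM in XY mESC and 119, 112 and 73.9 in XY EpiLC. The groups did not overlap, and the log2 fold change was -0.95 ± 0.26 (SE, n = 3 and 3, limma adjusted p 0.00611). The call was kept without each library in turn and lost with TPM as deposited (-0.35, adjusted p 0.425). Hist1h3b had 213, 161 and 166 in XY mESC and 125, 119.7 and 102 in XY EpiLC, a log2 fold change of -0.63 ± 0.20 (SE, n = 3 and 3, limma adjusted p 0.0159). Hist1h3b was not called without XY mESC 1 (0.0788), without XY EpiLC 3 (0.0687), with TPM as deposited (-0.03, adjusted p 0.95), with quantile normalization (0.123) or with that rescaled TPM (0.141).

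In Tet3-/- cells 2 H3 genes rose. Hist2h3b had 48.4, 51.5, 81.8 and 44.0 scaled TPM in Tet3-/- mESC and 122, 158 and 65.1 in Tet3-/- EpiLC, a log2 fold change of 0.97 ± 0.28 (SE, n = 4 and 3, limma adjusted p 0.0078, and 0.055 without Tet3-/- EpiLC 3). Hist1h3i had 62.4, 77.8, 86.7 and 48.8 in Tet3-/- mESC and 129, 141 and 87.7 in Tet3-/- EpiLC, a log2 fold change of 0.79 ± 0.25 (SE, n = 4 and 3, limma adjusted p 0.0145). Hist1h3i was not called without Tet3-/- EpiLC 1 (0.0549) or 3 (0.0656), or with rescaled TPM (0.0722). With TPM as deposited neither gene was called (Hist2h3b 0.76, limma adjusted p 0.199, and Hist1h3i 0.57, limma adjusted p 0.318). Hist2h3b rose by 1.21 (adjusted p 0.00597) and Hist1h3i by 1.07 (adjusted p 0.00475) without the 3 high libraries. Tet3-/- EpiLC 4 was the lowest EpiLC library of its genotype for both genes, and for Hist2h3b it lay among the mESC libraries.

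All H4 genes encode the same protein. Hist1h4a had 251, 359 and 243 scaled TPM in XX mESC and 198, 174 and 161 in XX EpiLC, and it had 385, 271 and 262 in XY mESC and 218, 209 and 166 in XY EpiLC. Groups did not overlap in either genotype. The log2 fold changes were -0.66 ± 0.21 (limma adjusted p 0.0138) and -0.62 ± 0.21 (limma adjusted p 0.0194), each SE with n = 3 and 3. The XX call was lost without XX mESC 2 (0.0702), without XX EpiLC 3 (0.0543) and without the 3 high libraries (0.0592), and the XY call without XY mESC 1 (0.11) or XY EpiLC 3 (0.0926). Both were lost with TPM as deposited (adjusted p 0.339 and 0.977).

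Hist4h4 had 25.2, 25.7 and 24.7 scaled TPM in XX mESC and 19.1, 16.9 and 15.3 in XX EpiLC, and it had 25.6, 25.4 and 18.1 in XY mESC and 14.1, 15.8 and 9.96 in XY EpiLC. The groups did not overlap. In XY cells it fell by 0.76 ± 0.20 on the log2 scale (SE, n = 3 and 3, limma adjusted p 0.00473), also without each library in turn, and in XX cells by 0.54 ± 0.20 (SE, n = 3 and 3, limma adjusted p 0.0339). The XX value was -0.53 without the 3 high libraries (adjusted p 0.0313). The XX call was lost without any 1 of XX mESC 1, 2 and 3 and XX EpiLC 2 and 3 (adjusted p 0.0609 to 0.112), and both were lost with TPM as deposited (adjusted p 0.377 and 0.622) and with rescaled TPM (0.12 and 0.0572).

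Hist1h4c had 102, 100.4 and 96.0 scaled TPM in XX mESC and 70.8, 64.5 and 59.3 in XX EpiLC, and Hist1h4k had 217, 226 and 192 and then 144, 134 and 126. Neither gene's groups overlapped, and XX mESC 2 was within the range of the other XX mESC libraries or close to it. The log2 fold changes were -0.61 ± 0.22 (limma adjusted p 0.027) and -0.65 ± 0.23 (limma adjusted p 0.026), each SE with n = 3 and 3. Both calls were lost without XX mESC 1 or 2 or XX EpiLC 2 or 3 (adjusted p 0.0538 to 0.0874), and without the 3 high libraries (0.054 and 0.0674). They were also lost with TPM as deposited (limma adjusted p 0.327 and 0.35) and with rescaled TPM (0.106 and 0.13).

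Hist1h4i had 121, 163 and 73.4 scaled TPM in XY mESC and 74.5, 75.5 and 52.6 in XY EpiLC, a log2 fold change of -0.76 ± 0.26 (SE, n = 3 and 3, limma adjusted p 0.0224). Its groups overlapped, and the call was lost without XY mESC 1 (0.0666) or 2 (0.132) or XY EpiLC 3 (0.108). The call was also lost with TPM as deposited (-0.16, limma adjusted p 0.662) and with rescaled TPM (-0.51, limma adjusted p 0.0638). In the Tet3-/- transition Hist1h4b had 83.1, 119, 138 and 74.8 in mESC and 171, 222 and 122 in EpiLC, a log2 fold change of 0.72 ± 0.26 (SE, n = 4 and 3, limma adjusted p 0.0284). Its groups overlapped too, and the call was lost without Tet3-/- mESC 1 or 4 or Tet3-/- EpiLC 1 or 3 (adjusted p 0.0712 to 0.14). The Hist1h4b call was also lost with TPM as deposited (0.51, limma adjusted p 0.391) and with rescaled TPM (0.62, limma adjusted p 0.1). Hist1h4b rose by 1.07 without the 3 high libraries (adjusted p 0.00145).

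The second question was whether loss of Tet3 changed the members. In mESC 0 of 64 were called by limma between Tet3-/- and XX cells, where 3.12% of all tested genes were (1.83% higher and 1.29% lower), and 13 (20.3%) had an unadjusted p under 0.05, beside 14.6% of all genes. The members' median was -0.31 beside 0 for all genes, and 51 of the 64 had a negative fold change. With TPM as deposited the members' median was -0.05 beside 0.19 for all genes, with 0 members called. Without the 3 high libraries 2 were called, both higher in Tet3-/-, with a median of -0.33 and 6.43% of all genes called. The H4 sums were 1541, 1813, 1982 and 1213 scaled TPM in Tet3-/- mESC and 2112, 2608 and 2011 in XX mESC, so that these groups did not overlap after scaling. As deposited, before scaling, the H4 sums of these groups overlapped. XX mESC 1 had the lowest scaling factor, 0.603. All 12 tested H4 genes had a negative fold change, from -0.67 to -0.14, and 6 of them had an unadjusted p under 0.05. The 12 share libraries and part of their sequence and are not independent of each other.

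In EpiLC 1 of 64 members was called between Tet3-/- and XX cells, beside 5.56% of all tested genes (2.39% higher and 3.17% lower), with a members' median of 0.03. This was Hist1h1e, at 68.7, 79.2 and 53.8 scaled TPM in Tet3-/- EpiLC and 49.4, 46.1 and 46.5 in XX EpiLC, groups that did not overlap. Its log2 fold change was 0.48 ± 0.14 (SE, n = 3 and 3, limma adjusted p 0.0494). The call was lost without XX EpiLC 1, 2 or 3 or Tet3-/- EpiLC 1 or 3 (adjusted p 0.0934 to 0.163), and in 8 of 9 refits under other settings, with adjusted p from 0.0502 to 0.922. It also missed a required log2 change of 1.

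The Tet3-/- transition was compared with the XX transition as a difference of fold changes. Of 64 members 0 were called by limma, where 0.668% of all tested genes were (0.227% higher and 0.441% lower), and 6 (9.38%) had an unadjusted p under 0.05, beside 10.8% of all genes. The members' median difference was 0.31 beside -0.02 for all genes, and -0.05 beside -0.28 with TPM as deposited. All 12 tested H4 genes had a positive difference, from 0.35 to 1.12 with a median of 0.56, or 0.67 without the 3 high libraries. These genes share libraries and part of their sequence, so the 12 are not independent. The mESC difference between Tet3-/- and XX cells, negative in all 12, enters this value with its sign turned. It is thus not a result separate from that in mESC. Without the 3 high libraries 0 were called as well, with a median of 0.36 and 2.58% of all genes called.

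The third question was the difference between XX and XY cells, that is between the LF2 and the E14 line. In mESC 5 of 64 members were called, 3 higher and 2 lower in XX, beside 31.1% of all tested genes (16.9% higher and 14.2% lower), with a members' median of -0.10. The 3 higher ones were Hist1h1t (1.84 ± 0.35, limma adjusted p 0.000803), Hist1h2aa (1.57 ± 0.23, limma adjusted p 8.33e-05) and Hist1h2ba (1.44 ± 0.13, limma adjusted p 5.36e-07), each SE with n = 3 and 3. In each of these genes the XX and XY mESC libraries did not overlap, and the calls held without each library in turn and without the 3 high libraries. Without those libraries 19 members were called, 3 higher and 16 lower, with a median of -0.30 and 42.9% of all genes called, and without XX mESC 2 alone 17 were.

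The 2 lower members were Hist1h2be and Hist2h3c2. Hist1h2be had 13.8, 30.8 and 12.7 scaled TPM in XX mESC and 38.2, 42.0 and 26.0 in XY mESC, a log2 fold change of -0.94 ± 0.30 (SE, n = 3 and 3, limma adjusted p 0.0252). Hist2h3c2 had 31.1, 64.9 and 33.1 in XX mESC and 84.7, 66.9 and 65.3 in XY mESC, a log2 fold change of -0.81 ± 0.29 (SE, n = 3 and 3, limma adjusted p 0.0476). For Hist1h2be, XX mESC 2 lay within the range of the XY libraries, and for Hist2h3c2 it lay just under it. The Hist1h2be call was lost without XX mESC 1 or 3 or XY mESC 1 or 2 (adjusted p 0.0802 to 0.123), and without the 3 high libraries both were called (-1.33, adjusted p 0.000169, and -1.14, adjusted p 0.00042). The Hist2h3c2 call was lost without XX mESC 1 or 3 or XY mESC 1, 2 or 3 (adjusted p 0.0673 to 0.196). It was also lost with TPM as deposited (-1.06, limma adjusted p 0.136) and with rescaled TPM (-0.77, limma adjusted p 0.097).

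In EpiLC 1 of 64 members was called between XX and XY cells, beside 34.4% of all tested genes (16.8% higher and 17.6% lower). It was Hist1h1c, at 121, 109 and 111 scaled TPM in XX EpiLC and 81.6, 77.5 and 66.2 in XY EpiLC, groups that did not overlap. The log2 fold change was 0.60 ± 0.21 (SE, n = 3 and 3, limma adjusted p 0.0416). It was lost without each of the 6 libraries in turn (adjusted p 0.0563 to 0.142) and turned to -0.12 (adjusted p 0.69) with TPM as deposited. The members' median was 0.06 beside -0.01 for all genes, and -0.62 beside -0.59 with TPM as deposited.

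The XX transition differed from the XY transition in 3 of 64 members, all in the negative direction, beside 23.5% of all tested genes (10.8% higher and 12.7% lower). They were Hist1h1t at -1.81 ± 0.49 (limma adjusted p 0.0139), Hist1h2ba at -1.40 ± 0.18 (limma adjusted p 3.51e-05) and Hist1h2aa at -1.29 ± 0.32 (limma adjusted p 0.00853), each SE with n = 3 in each of 4 groups. All 3 were higher in XX than in XY mESC. In EpiLC Hist1h1t overlapped between XX and XY, and Hist1h2aa and Hist1h2ba were under 0.5 scaled TPM or listed at 0 in both. The value of Hist1h2ba includes a group listed at 0 and so depends on the pseudocount. Without the 3 high libraries 18 were called, 15 higher and 3 lower, with 34.4% of all genes called, and without XX mESC 2 alone 11. Hist1h1t, Hist1h2ba and Hist1h2aa were called there too, at -2.31, -1.23 and -1.12. Hist1h2aa was not called with TPM as deposited (adjusted p 0.051) or with a pseudocount of 0.1 (adjusted p 0.389). The comparisons of XX with XY and of Tet3-/- with XX share the XX libraries.

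The genes that serve the histone mRNAs moved beside them as follows. Of 19 tested genes of processing and control, 1 rose and 6 fell in the XX transition, 3 rose and 2 fell in XY, and 2 rose and 6 fell in Tet3-/- cells, fewer called than the 50.3%, 51.5% and 52.4% of all tested genes. With the 3 high libraries left out, 5 rose and 5 fell in XX, and 4 rose and 5 fell in Tet3-/- cells. These counts were near the 52% and 51.9% of all tested genes then called, and no longer clearly fewer. Cdk2 and E2f1, a kinase and a transcription factor of the entry into S phase, fell in all 3, Cdk2 by 0.85, 0.67 and 0.83 and E2f1 by 0.83, 0.50 and 1.07 on the log2 scale (limma adjusted p from 1.62e-05 to 0.0153). Zfp473, a zinc finger protein of the U7 snRNP complex that cuts histone pre-mRNA, rose by 1.29 in XX (limma adjusted p 2.09e-05) and 0.91 in Tet3-/- cells (limma adjusted p 0.00027). In XY cells its change was 0.07 (limma adjusted p 0.774), and the XX transition exceeded the XY transition by 1.22 (limma adjusted p 0.0026). Slbp was not called in any transition, nor was Lsm11.

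Of 20 S phase genes, 0 rose and 6 fell in XX cells, 1 fell in XY and 7 fell in Tet3-/- cells, with medians of -0.41, -0.31 and -0.44. Of all tested genes 23.7%, 22.6% and 25.9% fell. Leaving out the 3 high libraries, 1 S phase gene rose and 5 fell in XX cells (median -0.10), and 6 fell in Tet3-/- cells (median -0.13). Of all tested genes 25.6% and 26.8% then fell. Pola1, a subunit of DNA polymerase alpha, fell by 0.92 in XX (limma adjusted p 0.00204) and by 1.38 in Tet3-/- cells (limma adjusted p 2.58e-05). Over the same transitions the members' medians were -0.10, -0.30 and 0.22. The XX median turned to 0.19 without the 3 high libraries. With TPM as deposited the medians were 0.04, 0.30 and 0.02. The XY median was -0.05 with quantile normalization and also with rescaled TPM.

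Most of the replication-independent histones have mRNAs with poly(A) tails. Of 11 tested, 4 rose and 2 fell in XX, 3 rose and 3 fell in XY, and 4 rose and 2 fell in Tet3-/- cells, a share near the 50.3%, 51.5% and 52.4% of all tested genes. The counts were 5 and 2 in XX and 6 and 2 in Tet3-/- cells without the 3 high libraries. These lay above the 52% and 51.9% of all tested genes then called. H1f0, which encodes the linker histone H1.0 of slowly dividing and differentiating cells, rose by 0.96, 0.68 and 1.43 (limma adjusted p 0.000393, 0.00567 and 3.2e-06), H1fx rose by 0.78, 0.47 and 0.53, and H3f3b, a gene of the variant H3.3, by 0.57, 0.33 and 0.65. H2afy, which encodes macroH2A1, fell by 1.23 in XX and 1.37 in Tet3-/- cells (limma adjusted p 7.31e-08 and 6.63e-09). Its XX transition was lower than the XY transition by -1.05 (limma adjusted p 9.37e-05).

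Of 10 histone chaperones, 0 rose and 1 fell in XX, 2 rose and 2 fell in XY, and 0 rose and 4 fell in Tet3-/- cells, fewer called than among all tested genes (50.3%, 51.5% and 52.4%). The same counts, 1 and 4 lower, were found in XX and Tet3-/- cells without the 3 high libraries, beside 52% and 51.9% of all tested genes called. Asf1b, which hands H3 and H4 to the assembly factors at forks, fell in all 3 transitions, by 0.91, 1.24 and 1.12 on the log2 scale (limma adjusted p 0.0146, 0.00185 and 0.0022).

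Most members have 1 annotated transcript. Of those with several, Hist1h2bp had from 7.18% to 20.0% of its TPM on the transcript Hist1h2bp-202, in which the stem-loop pattern was not found. Hist1h2br had from 99.35% to 99.9% on Hist1h2br-203, and Hist1h2bq from 0% to 14.68% on Hist1h2bq-202. Both transcripts have 823 bases after the stop codon, and the pattern was found in no transcript of either gene. Hist1h2br shares 89.5% of its sequence words with Hist1h2bq, and how reads were divided between these genes was not tested.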

How the data were processed

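RNA was sequenced from 19 libraries made with the TruSeq stranded total RNA kit after removal of rRNA, per the labels' protocols. The authors deposited 1 table of TPM for 140948 transcripts. The submitters' processing notes name FastQC 0.11.7, Trimmomatic 0.35, Salmon 1.1.0 and GRCm38, and the depth per library is not given in the sources used here, so no counting interval could be computed.

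TPM was summed per gene through GENCODE M21 (1096 transcripts, 0.0454% to 0.215% of TPM, matched no gene) and divided by median-of-ratios factors over 9186 genes with TPM of at least 1 in every library. Genes with TPM of at least 1 in 3 libraries (14972) were fitted as log2(scaled TPM + 1) in limma 3.58.1 (R 4.3.3), with 1 mean per group, a trend on the prior variance and Benjamini-Hochberg adjustment over all genes within each of 9 comparisons, called at 0.05. Groups came from the labels, and no library was left out of the main fit. A fold change on this scale understates the change of low genes. The fit was tested on simulated data.

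The members and the gene lists were chosen with earlier results of these data known. Genes named were the 3 highest of each class, the 5 highest and 5 lowest called members per comparison with a mean of at least 5 scaled TPM in a group, members called in a difference of transitions or in Tet3-/- against XX, members that carry a sequence or transcript result, and members of the lists. Hist1h2aa, Hist1h2ba and Hist1h1t in the single transitions, and the list genes given values, were picked out after their values were seen. Alternatives covered scaling, pseudocount, filters, the variance trend, a fold threshold, the groups in the fit, a replicate block and leaving out libraries. Tables were read with Python 3.11.15, pandas 2.3.3 and NumPy 2.4.6, and figures drawn with matplotlib 3.10.9.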

Additional observations from a re-analysis of the deposited data

Results flagged for a closer look

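The change from mESC to EpiLC differed between XX and XY cells in 3 members, by limma's test of the difference itself. Hist1h1t differed by -1.81 on the log2 scale (adjusted p 0.0139), Hist1h2ba by -1.40 (adjusted p 3.51e-05) and Hist1h2aa by -1.29 (adjusted p 0.00853). Hist1h1t rose in XY cells and was not called in XX cells, while Hist1h2aa and Hist1h2ba were lower in EpiLC in both. Hist1h2aa was not called with TPM as deposited (limma adjusted p 0.051) or with a pseudocount of 0.1 (-0.82, limma adjusted p 0.389). Hist1h2aa and Hist1h2ba were lower in XY than in XX mESC and near the floor in EpiLC. The log2(scaled TPM + 1) scale thus bounds how far they could fall in XY cells. XX cells are of the LF2 line and XY cells of E14, so that sex and line cannot be told apart. A library far from the others of its group was looked for only in the 4 Tet3-/- mESC libraries, over 36 measures with 0 found, where chance gives about 1 in 20. The rule flags only a single library far from all the others. It cannot flag a split such as that of libraries 2 and 3 from 1 and 4, so 0 found does not speak to that split. Groups of 3 were not examined in this way, among them XX mESC, in which library 2 stood apart.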

How the results depend on the processing

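TPM without counts sets the limits here: depth is unknown, near-identical copies share reads, and 3 or 4 libraries a group carry the spread. Counts of called members moved with the settings, as did the shares of all tested genes called, and the cause was not tested. With TPM as deposited the counts were 2 (XX transition), 6 (XY), 3 (Tet3-/-), 0 (Tet3-/- against XX EpiLC) and 5 (XX against XY EpiLC). Of all tested genes 31.3%, 50.5%, 35.1%, 1.08% and 47.2% were called in these. The members' medians were then 0.30 (XY transition), -0.62 (XX against XY EpiLC), -0.05 (Tet3-/- against XX transition) and -0.16 (XX against XY transition), beside 0.54, -0.59, -0.28 and -0.40 for all genes, and Hist1h1c in XX against XY EpiLC turned to -0.12. Tet3-/- against XX EpiLC also gave 0 with quantile normalization, rescaled TPM, no filter, TPM of at least 5 in 3 libraries, no variance trend, a fold threshold and a fit of only the groups compared. Under those listed before the fold threshold, 1.38% to 6.6% of all tested genes were called. The XY transition gave 9 with quantile normalization (52.1% of all tested genes), 8 with rescaled TPM (48.9%) and 10 without a filter (19.7%). The Tet3-/- transition gave 6 with rescaled TPM (45.1% of all tested genes), and the XX transition 5 without a filter (18.8%). XX against XY mESC gave 3 without a filter (9.92% of all tested genes) or with TPM of at least 5 (31.7%). XX against XY EpiLC gave 2 with a pseudocount of 0.1 (33.9% of all tested genes), 0 without a filter (11.6%) and 14 in a fit of only the groups compared. XX against XY transition gave 1 with TPM of at least 5 (21.9% of all tested genes) and 6 in a fit of only the groups compared. Where a call also needed a log2 change of 1 or more, the counts were 2 (XX transition), 1 (XY), 3 (Tet3-/-), 3 in XX against XY mESC and 0 in XX against XY EpiLC. No share of all genes was computed for this threshold, for fits of only the groups compared or with 1 library left out.

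Replicate numbers did not pair the libraries: deviations of same-numbered libraries correlated at -0.44 to 0.48 between mESC groups and at -0.09 to 0.27 between states. With a replicate block 20 members were called in the Tet3-/- transition, 1 in Tet3-/- against XX mESC, 2 in XX against XY EpiLC and 5 in XX against XY transition. Of all tested genes 48.6%, 0.948%, 31.2% and 20.5% were called there.

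Without XX mESC 2 and Tet3-/- mESC 2 and 3, chosen after the data were seen, the counts were 19 (XX transition), 29 (Tet3-/-, median 0.54), 2 (Tet3-/- against XX mESC), 19 (XX against XY mESC) and 18 (XX against XY transition). Of all tested genes 52%, 51.9%, 6.43%, 42.9% and 34.4% were then called. With 1 library left out at a time the counts ran from 4 to 10 (XX transition), 9 to 22 (XY), 5 to 16 (Tet3-/-), 0 to 2 (Tet3-/- against XX mESC), 0 to 1 (Tet3-/- against XX EpiLC), 3 to 17 (XX against XY mESC), 0 to 0 (XX against XY EpiLC), 0 to 1 (Tet3-/- against XX transition) and 3 to 11 (XX against XY transition). The members' medians in the same order ran from -0.24 to 0.19, -0.46 to -0.21, 0.08 to 0.36, -0.39 to -0.12, -0.03 to 0.12, -0.30 to 0.03, -0.01 to 0.18, 0.14 to 0.41 and 0.16 to 0.43. Of 255 such refits of 38 named calls, 185 kept the call. With TPM as deposited 16 of the 38 named calls were kept, 21 were lost and 1 was lost with its sign reversed. With rescaled TPM 24 were kept and 14 lost.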
